A study of Mus musculus with 8 samples.

Results

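The serotonin receptors described here were the products of 8 mouse genes, Htr1a, Htr1b, Htr1d, Htr2a, Htr2b, Htr2c, Htr3a and Htr7. They were chosen by name, and each was read from the probe set that the platform annotation maps to that symbol alone. The array carried 14 serotonin receptor genes in all, and each of the 8 had exactly 1 such probe set. Of the 8, 7 passed a filter on low values and entered the tests beside 16026 genes in all, and Htr2b lay below it. Cervical spinal cord RNA, per the labels, was measured on 8 Affymetrix whole-transcript arrays, 2 arrays in each of 4 groups. All mice were male, C57BL/6 and 6 weeks old at the start, and the sample titles number the mice within a group, so each array was taken as 1 animal. Control mice received saline into the abdomen daily for 4 weeks. The MPTP group received MPTP at 20 mg/kg every 24 h over those weeks. MPTP is a toxin that the enzyme monoamine oxidase B turns into a compound damaging to dopamine neurons, and it is used to model parkinsonism. Both remaining groups received the same MPTP course with manual needling of both legs or hips, in 14 sessions at 48 h intervals. In the acupoint group needles went 3 mm deep at GB34 and 1 mm deep at LR3, and in the nonacupoint group 3 mm deep at the hips. No group received needling without MPTP, so needling could be compared only between MPTP-treated mice. The protocol gives 9 mice for the control group and 9 for the MPTP group, of which 2 per group are on these arrays.

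Serotonin reaches the spinal cord from raphe neurons of the brainstem, whose axons end in the dorsal horn, around autonomic neurons and among motor neurons. The cord makes the receptors, while the enzyme that starts serotonin synthesis in neurons is made in the raphe cell bodies. Htr1a, Htr1b and Htr1d encode receptors that couple to inhibitory G proteins, lowering cyclic AMP and opening potassium channels. Htr2a, Htr2b and Htr2c encode receptors that couple to Gq and phospholipase C, and on motor neurons those of Htr2a and Htr2c raise excitability. Htr3a encodes the subunit that every serotonin-gated cation channel needs, and Htr7 a receptor coupled to Gs that raises cyclic AMP.

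The stretch of 250 bases before the annotated start is shown for 3 of the 8 genes, because Htr1a and Htr2a passed the test of the 3 MPTP groups together against control given below and Htr2c, of the same family as Htr2a, did not. The sequences are from RefSeq on build GRCm38.p6, all on the plus strand, at chr13:105443443-105443692 for Htr1a, chr14:74640624-74640873 for Htr2a and chrX:146962263-146962512 for Htr2c. Capitals mark matches, on either strand, to any of 7 motifs searched.
Htr1a: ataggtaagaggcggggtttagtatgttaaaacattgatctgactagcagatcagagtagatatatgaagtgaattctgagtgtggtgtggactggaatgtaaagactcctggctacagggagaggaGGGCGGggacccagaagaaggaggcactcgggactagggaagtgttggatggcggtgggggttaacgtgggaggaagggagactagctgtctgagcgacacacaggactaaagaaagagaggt
Htr2a: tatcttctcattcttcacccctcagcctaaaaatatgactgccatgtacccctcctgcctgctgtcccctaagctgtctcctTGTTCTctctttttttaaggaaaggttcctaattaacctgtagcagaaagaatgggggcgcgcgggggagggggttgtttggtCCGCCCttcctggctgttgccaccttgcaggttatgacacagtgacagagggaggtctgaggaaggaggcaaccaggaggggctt
Htr2c: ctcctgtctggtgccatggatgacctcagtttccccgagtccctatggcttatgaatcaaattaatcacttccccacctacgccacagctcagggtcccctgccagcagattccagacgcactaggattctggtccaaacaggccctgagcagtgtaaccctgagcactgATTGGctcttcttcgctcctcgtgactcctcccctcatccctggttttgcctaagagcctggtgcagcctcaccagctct
The motifs were the GC box GGGCGG, the TATA box TATAAA, the CCAAT box CCAAT, the cyclic AMP response element TGACGTCA, the E-boxes CACGTG and CAGCTG, and the steroid receptor site AGAACA. The Htr1a window held 1 GC box, 123 bases before the start. The Htr2a window held a GC box on the opposite strand, 85 bases before the start, and the reverse of AGAACA at 168 bases. The Htr2c window held only a reversed CCAAT box, at 80 bases. These letters are common: of 32851 RefSeq windows of the same length, 32.7% held a GC box, 33.8% a CCAAT box and 16.1% AGAACA. RefSeq promoter entries were matched for 7 of the 8 genes, and Htr3a was without one here. The same search found a GC box in both Htr1d windows, and a CCAAT box in 1 of them and in the Htr1b window. It found CAGCTG and AGAACA in that of Htr2b, and none of the motifs in that of Htr7. No motif's letters contain those of another.

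Across the series the arrays of the control group stood apart from the other 6. The values are log2 of the probe set signal, so a difference of 1 means a 2-fold difference in signal. Probe sets that lack a gene symbol had medians of 4.25 to 4.39 on the 6 MPTP-treated arrays, below the 4.75 of each control array. The mean of 12 skeletal muscle markers was 7.34 for control 1 and 8.84 for control 2, against 5.15 to 6.76 with MPTP, the 6.76 being acupoint array 1, and 10 of the 12 fell from control to MPTP. The mean of 7 neuron markers was 10.15 and 10.18 in control, against 10.4 to 10.5 with MPTP, and 5 of the 7 rose with MPTP. Among them Rbfox3 ran the other way without a call, at 8.81 and 8.90 in control against 8.69 to 8.78 with MPTP. Means also differed for motor neuron markers, at 7.33 and 7.62 against 7.91 to 8.10, and for dorsal horn neuron markers, at 6.83 and 7.11 against 7.22 to 7.63. Astrocyte markers stood at 9.91 and 10.05 against 10.5 to 10.65, microglia markers at 6.63 and 6.64 against 6.94 to 7.13, and oligodendrocyte markers at 11.20 and 11.23 against 11.37 to 11.59. Of the microglia markers, Tmem119 was not higher, with group means of 6.83 in control, 6.60 in MPTP, 6.81 in acupoint and 6.69 in nonacupoint mice. Erythroid and platelet markers stood at 5.11 and 5.19 against 5.47 to 6.89. Sensory neuron markers of the dorsal root ganglion ran the other way, at 6.12 and 5.63 against 5.20 to 5.65, with 2 of 5 tested lower over the 3 MPTP groups. Meningeal fibroblast markers split arrays within groups. They read 8.26 and 6.62 in control, 6.46 and 7.52 in MPTP, 8.49 and 6.31 in acupoint and 6.66 and 7.05 in nonacupoint mice. Schwann cell markers were highest on control 1 (10.10) and acupoint 1 (10.14). All 7 neuron markers, 7 motor neuron markers and 6 astrocyte markers passed the level filter. Of 4 raphe neuron markers, Tph2 lay below the filter and Fev had no probe set of its own. In bulk tissue fewer cells of a type and less RNA per cell cannot be told apart, and the part these marker shifts have in the receptor results was not tested except where a fit with a marker mean is given.

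**Figure D1:**
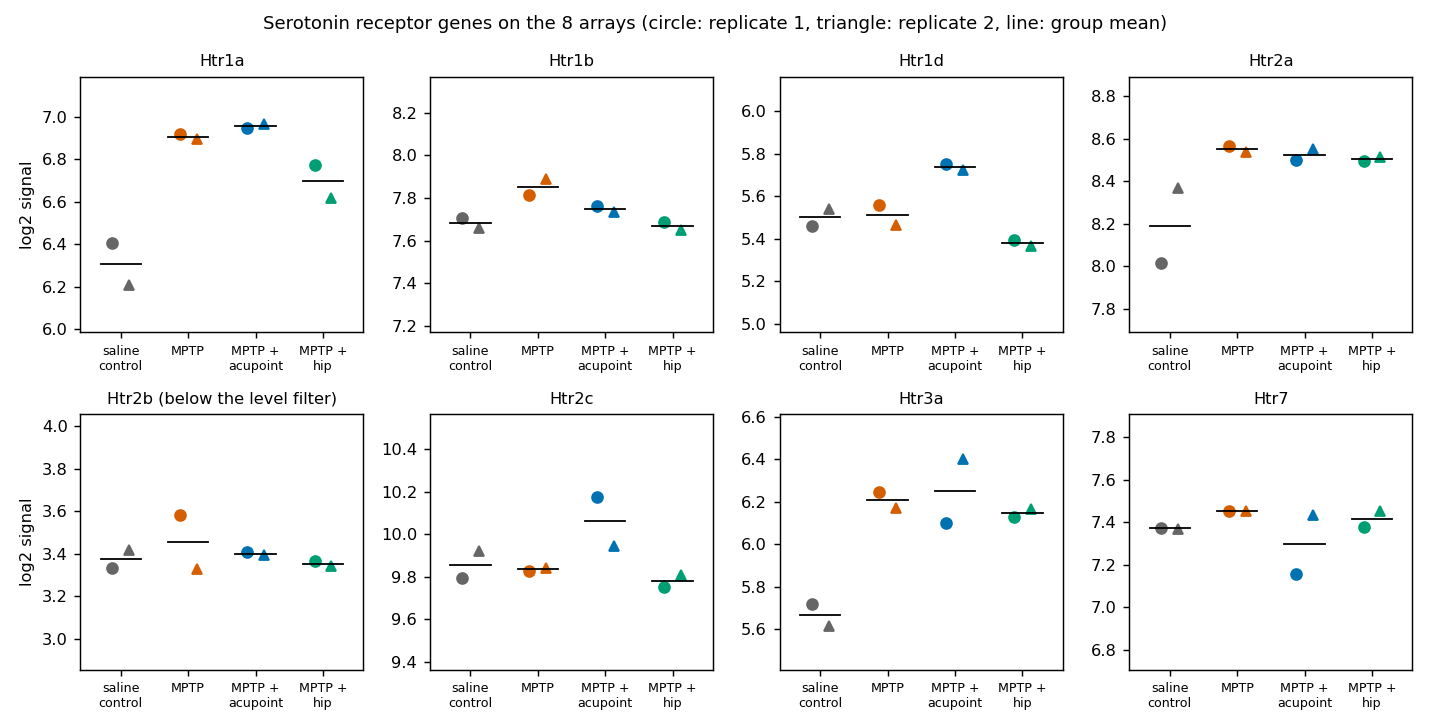
Log2 signal of each of the 8 receptor genes on every array, with 1 panel per gene, groups along the horizontal axis, circles for replicate 1, triangles for replicate 2 and a line at the group mean. Htr1a and Htr3a lie lower on both control arrays (6.40 and 6.21 for Htr1a) than on all 6 MPTP arrays, whereas Htr1d and Htr2c overlap between control and MPTP.

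Htr1a, the inhibitory receptor found on both serotonin neurons and their targets, had the largest difference between MPTP and control of the 8. Its log2 signal was 6.40 and 6.21 in control, 6.92 and 6.89 in MPTP, 6.94 and 6.96 in acupoint and 6.77 and 6.62 in nonacupoint mice. Both control arrays lay below all 6 others, and the acupoint arrays were the highest. Group means were 6.31 ± 0.14 (SD, n = 2) for control, 6.91 ± 0.015 for MPTP, 6.95 ± 0.014 for acupoint and 6.70 ± 0.11 for nonacupoint. Htr1a rose 1.52-fold with MPTP alone, a log2 difference of 0.60 with a standard error of 0.11 and a 95% interval of 0.34 to 0.86. The adjusted p was 0.00975 with limma, Benjamini-Hochberg over 16026 genes. It was also the only member past the threshold of 0.05 in the F-test over the 4 groups (adjusted p 0.0200), where 10.8% of all genes passed. Htr3a lay just outside that threshold, with an adjusted p of 0.0501 in the same F-test.

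Htr3a, the channel subunit, was the other member that rose with MPTP alone. It read 5.72 and 5.62 in control, 6.24 and 6.17 in MPTP, 6.10 and 6.40 in acupoint and 6.13 and 6.17 in nonacupoint mice. The control arrays were again the lowest of the 8, and the acupoint pair spread the most. Means were 5.67 ± 0.073, 6.21 ± 0.052, 6.25 ± 0.21 and 6.15 ± 0.027 (SD, n = 2 each). The rise with MPTP was 1.45-fold, a log2 difference of 0.54 (standard error 0.13, 95% interval 0.24 to 0.84, adjusted p 0.0245 with limma). Htr3b, which encodes a subunit that joins Htr3a in some channels and is the next gene to it in the RefSeq table, differed by -0.04 (95% interval -0.34 to 0.26).

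Htr2a, the Gq-coupled receptor, was just outside the threshold with MPTP alone. Its values were 8.01 and 8.37 in control, 8.57 and 8.54 in MPTP, 8.5 and 8.55 in acupoint and 8.49 and 8.51 in nonacupoint mice. The 6 MPTP-treated arrays lay within 8.49 to 8.57, above both controls, and the spread sat in the control pair (8.19 ± 0.25, SD, n = 2). The difference was 0.36 (standard error 0.11, 95% interval 0.11 to 0.61, adjusted p 0.0561 with limma). Htr2a passed the threshold without either acupoint array, but its difference stayed 0.36, because those arrays enter only the estimate of the spread. Calls over all genes rose there too. It also passed without control 2 (0.54), where control 1 was the only control array. Without control 1 the difference was 0.18 (adjusted p 0.245), and without MPTP 1 or MPTP 2 the adjusted p was 0.264 and 0.206.

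For the remaining members the MPTP arrays differed less from control. Htr1b, which curbs release from nerve endings, read 7.71 and 7.66 in control, 7.81 and 7.89 in MPTP, 7.76 and 7.73 in acupoint and 7.69 and 7.65 in nonacupoint mice. The MPTP pair was the highest, but the difference of 0.17 from control had a 95% interval of -0.03 to 0.36 (adjusted p 0.218 with limma). Htr1d, a close relative of Htr1b, read 5.46 and 5.54, 5.56 and 5.47, 5.75 and 5.72, and 5.39 and 5.37 in the same group order. Its control and MPTP arrays overlapped, the acupoint pair was the highest and the nonacupoint pair the lowest, and MPTP minus control was 0.01 (-0.26 to 0.28).

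Htr2c, whose RNA is edited by adenosine deaminases to alter its G protein coupling, read 9.79 and 9.92 in control, 9.83 and 9.84 in MPTP, 10.17 and 9.94 in acupoint and 9.75 and 9.81 in nonacupoint mice. The MPTP pair lay between the control arrays, with a difference of -0.02 (-0.22 to 0.18), and both acupoint arrays were above all others. Htr7 read 7.37 and 7.37, 7.45 and 7.45, 7.16 and 7.43, and 7.38 and 7.45, and MPTP minus control was 0.08 (-0.17 to 0.33). Its lowest value was acupoint array 1. Htr2b, the third Gq-coupled receptor, read 3.34 and 3.42, 3.58 and 3.33, 3.41 and 3.40, and 3.37 and 3.34. Those values lay under the filter of 4.30 on all 8 arrays, with MPTP and control overlapping, and in a fit without the filter Htr2b differed by 0.08 between MPTP and control (adjusted p 0.790 with limma).

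Read as a count, 2 of 7 members rose and 0 fell with MPTP alone, where 13.7% of all genes tested rose and 3.1% fell. Arrays did not overlap, with MPTP higher, for 5 of 7 members and for 41.9% of all genes. The median difference of the 7 members was 0.17 and that of all genes 0.06. Both calls were lost when single arrays were left out. Htr1a lost its call without control 2 (0.50, adjusted p 0.0657), without MPTP 1 (adjusted p 0.101) or without MPTP 2 (adjusted p 0.0835). Htr3a lost it without any of the 4 arrays compared, with adjusted p-values of 0.0541 without control 1, 0.121 without control 2, 0.184 without MPTP 1 and 0.124 without MPTP 2. Over all genes, 2696 were called with all arrays, 681 without control 2, 69 without MPTP 1 and 194 without MPTP 2.

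Each needled group was also set against the same control pair, so these comparisons share control arrays with the one above. With acupoint needling, Htr1a rose 1.57-fold (log2 difference 0.65, standard error 0.11, 95% interval 0.39 to 0.91, adjusted p 0.0104 with limma). Htr3a rose 1.5-fold (0.58, standard error 0.13, interval 0.28 to 0.88, adjusted p 0.0247). Htr2a differed by 0.33 (adjusted p 0.0876), Htr1d by 0.24 (adjusted p 0.241) and Htr2c by 0.20 (adjusted p 0.180), and none of these passed. The 2 members called stood against 9.55% of all genes called higher in that comparison. Htr1a lost this call without control 2 (0.55, adjusted p 0.0727), and Htr3a lost it without any single array other than acupoint 1, with adjusted p-values of 0.0503 to 0.131.

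With nonacupoint needling Htr1a rose 1.31-fold (0.39, standard error 0.11, interval 0.13 to 0.65, adjusted p 0.0414 with limma). Htr3a rose 1.39-fold (0.48, standard error 0.13, interval 0.18 to 0.78, adjusted p 0.0348). Htr2a differed by 0.31 (adjusted p 0.0817), and Htr1b, Htr1d, Htr2c and Htr7 by -0.01, -0.12, -0.08 and 0.05. Of all genes, 15.4% were called higher here. Both calls were lost without control 2, without either MPTP array and without either nonacupoint array, with adjusted p-values of 0.0878 to 0.274 for Htr1a and 0.0712 to 0.160 for Htr3a, and that of Htr3a also without control 1 (0.0691).

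**Figure D2:**
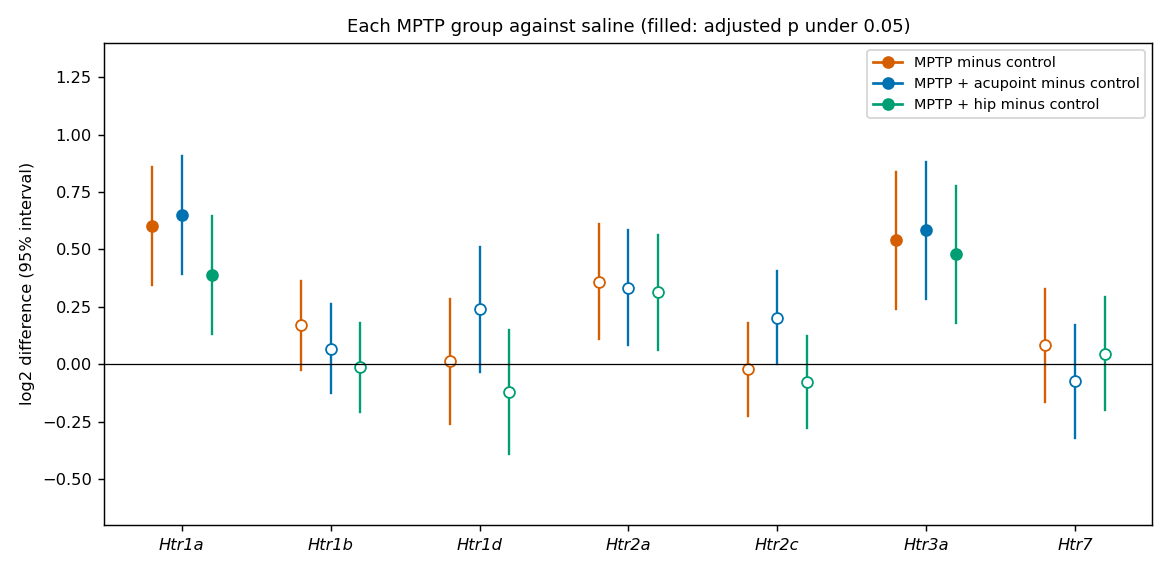
Log2 difference of each MPTP group from saline control for the 7 members tested, with 95% intervals from limma, filled where the adjusted p was under 0.05. The 3 points of Htr1a (0.60, 0.65 and 0.39) and of Htr3a (0.54, 0.58 and 0.48) are filled, those of Htr2a (0.36, 0.33 and 0.31) are open, and the rest lie nearer 0.

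The mean of the 3 MPTP groups against control uses all 6 treated arrays and gave the narrowest intervals. Htr1a rose 1.46-fold (0.55, standard error 0.093, 95% interval 0.34 to 0.76, adjusted p 0.00355 with limma), Htr3a 1.45-fold (0.53, standard error 0.11, interval 0.29 to 0.78, adjusted p 0.00744) and Htr2a 1.26-fold (0.34, standard error 0.091, interval 0.13 to 0.54, adjusted p 0.0256). Those 3 receptors belong to 3 signalling classes, Gi-coupled, channel and Gq-coupled. All 6 treated arrays lay above both controls for these 3 and for no other member. Htr1b, Htr1d, Htr2c and Htr7 differed by 0.07, 0.04, 0.03 and 0.02, with 95% intervals that together spanned -0.18 to 0.26. So 3 of 7 members rose, where 19.9% of all genes rose, and the arrays of 26.1% of all genes were separated in that way.

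These 3 calls differed in how far they rested on single arrays. Htr1a was called with any single array left out, at 0.45 to 0.65. Htr3a lost its call without control 2 (0.48, adjusted p 0.0767). Htr2a lost it without control 1, where its difference was 0.16 (adjusted p 0.230), and also without MPTP 1, MPTP 2, nonacupoint 1 or nonacupoint 2 (adjusted p 0.0561 to 0.0684). Control 2 and acupoint 1 were the highest arrays of their groups in muscle markers. Without both of them Htr1a differed by 0.45, Htr2a by 0.52 and Htr3a by 0.53. Control 1 and acupoint 2 were then the only arrays of their groups, so that fit assumed that both vary like the other groups.

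Scaling of the arrays mattered for Htr2a. The median gene lay 0.06 higher in the 3 MPTP groups, and 0.21 higher when each array was centred on its own median, so differences were also read against the median gene. For MPTP minus control Htr1a exceeded it by 0.54 under each of the 4 scalings tried and Htr3a by 0.48 to 0.58. Htr2a exceeded it by 0.16 to 0.30, and in the pooled comparison lost its call when values were quantile normalised again (0.25, adjusted p 0.0704) or fitted by cyclic loess (0.21, adjusted p 0.127).

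With the mean of the skeletal muscle markers as a covariate, no member and 9 of 16026 genes were called over the 3 MPTP groups. With the neuron marker mean, no member and no gene was called. In those fits the pooled Htr1a difference was 0.34 and 0.21 that of Htr2a 0.57 and 0.45, and that of Htr3a 0.23 and -0.07. The control and treated arrays do not overlap in either marker mean, so treatment and marker level cannot be told apart by these fits.

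**Figure D3:**
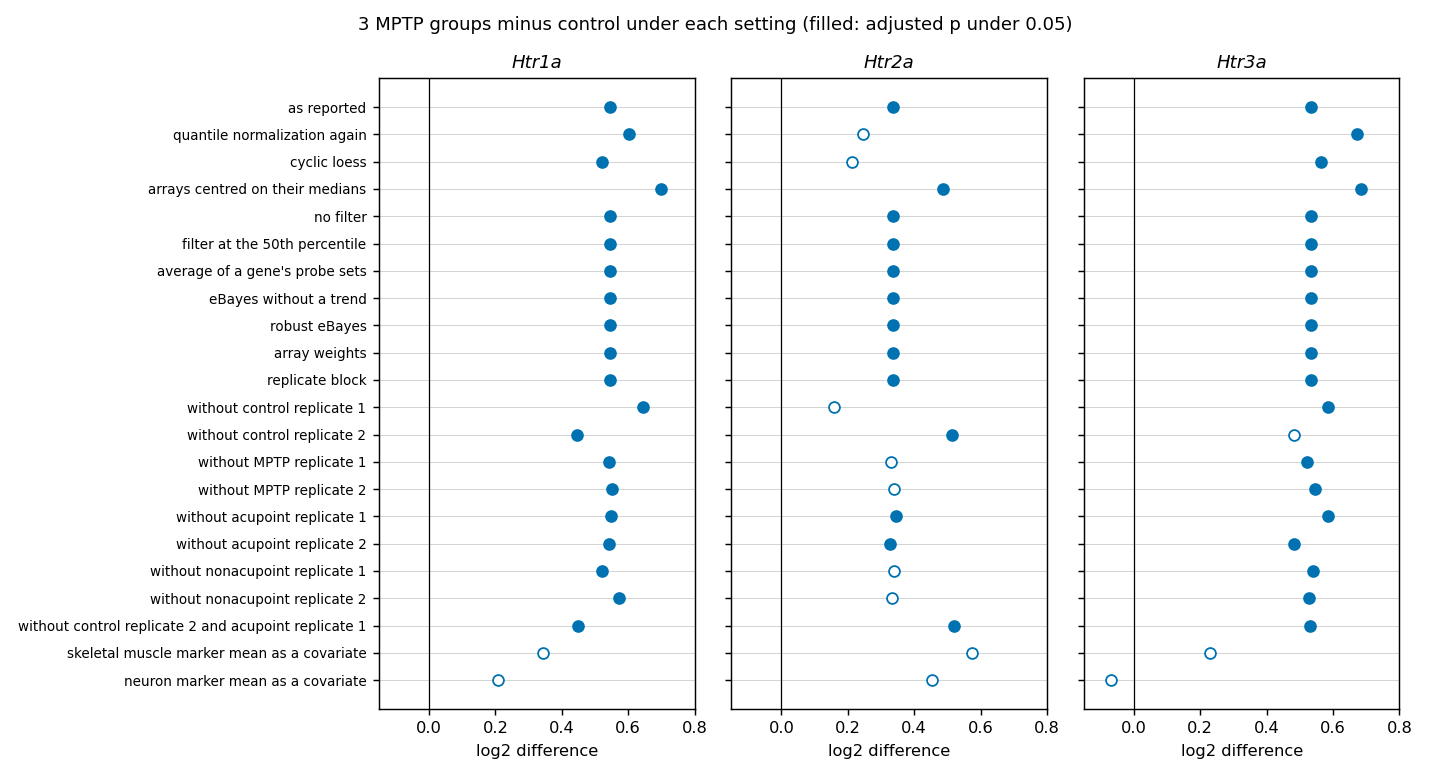
Log2 difference between the mean of the 3 MPTP groups and control for Htr1a, Htr2a and Htr3a under each processing alternative, 1 row per alternative, filled where the adjusted p was under 0.05. Htr1a is filled in every row except those with a marker mean as covariate, Htr2a is open in several and falls to 0.16 without control 1, and Htr3a drops to -0.07 with the neuron marker mean.

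Whether needling altered receptor levels in MPTP-treated mice was asked with 3 contrasts, and limma called none of the 7 members and none of the 16026 genes in any of them, which is 0% in each. For acupoint needling against MPTP alone, 1 member had an unadjusted p under 0.05, against 1.25% of all genes. It was Htr2c, 0.23 higher with acupoint needling (95% interval 0.02 to 0.43, p 0.0321, adjusted p 1.00). Htr1d was 0.23 higher (-0.04 to 0.5) and Htr7 differed by -0.16 (-0.40 to 0.09). Htr1a and Htr3a, the members that rose with MPTP, differed by 0.05 (-0.21 to 0.31) and 0.04 (-0.25 to 0.34).

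For nonacupoint needling against MPTP alone, 0 of 7 members and 1.7% of all genes had an unadjusted p under 0.05. All 7 differences were negative, and the nonacupoint arrays lay below both MPTP arrays for 6 of 7 members, every one but Htr7, where 19.2% of all genes did so. Htr1a differed by -0.21 (95% interval -0.47 to 0.05), Htr1b by -0.18 (-0.38 to 0.01) and Htr1d by -0.13 (-0.40 to 0.14), and Htr2a, Htr2c, Htr3a and Htr7 by -0.04 to -0.06.

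The sites of needling were compared directly as acupoint minus nonacupoint. Here 3 of 7 members had an unadjusted p under 0.05, against 3.77% of all genes, and all 3 were higher with acupoint needling. Htr1d differed by 0.36 (95% interval 0.09 to 0.63, p 0.0149), Htr2c by 0.28 (0.08 to 0.48, p 0.0116) and Htr1a by 0.26 (0.002 to 0.52, p 0.0487). Each had an adjusted p of 0.936 with limma, so none passed over all genes. The 2 acupoint arrays exceeded both nonacupoint arrays for Htr1a, Htr1b, Htr1d and Htr2c, 4 of 7 members, as did 15.2% of all genes. Htr2a, Htr3a and Htr7 overlapped, with differences of 0.02, 0.11 and -0.12. Without acupoint 2 the Htr2c difference was 0.40 and passed the threshold, but it then rested on acupoint 1 alone in that group. Calls over all genes rose there too.

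**Figure D4:**
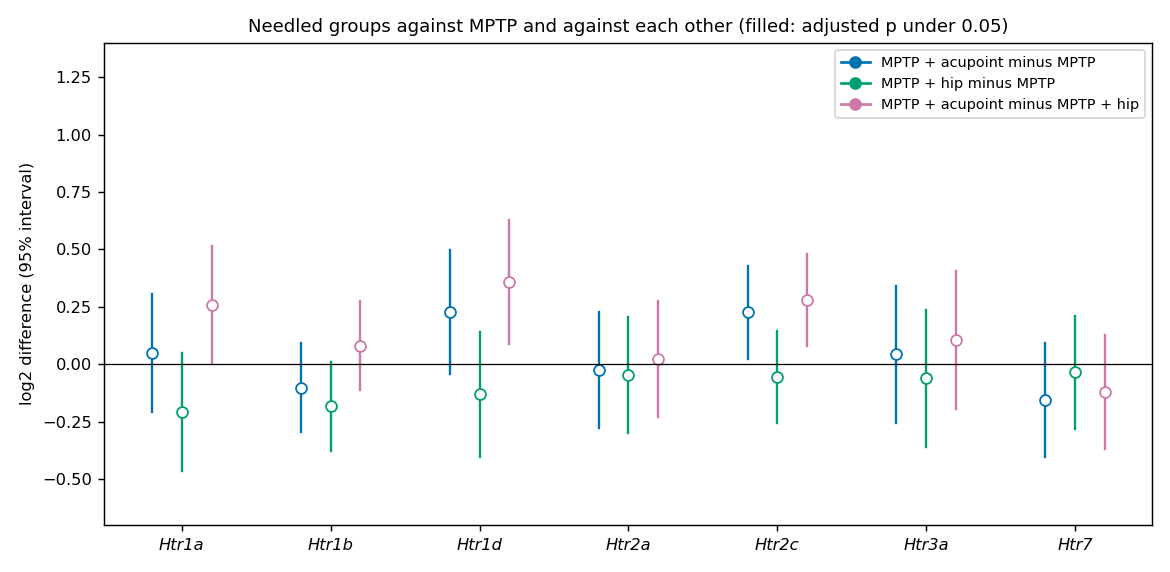
Log2 differences among the 3 MPTP groups for the 7 members tested, with 95% intervals from limma and colours for the 3 contrasts. No point is filled, since none had an adjusted p under 0.05, and the acupoint minus nonacupoint points of Htr1d (0.36), Htr2c (0.28) and Htr1a (0.26) are the farthest above 0.

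The order of the group means differed between the members. Control was the lowest group for Htr1a, Htr2a and Htr3a, nonacupoint for Htr1b, Htr1d and Htr2c, and acupoint for Htr7. Acupoint was the highest for Htr1a, Htr1d, Htr2c and Htr3a, and MPTP for Htr1b, Htr2a and Htr7. Neighbouring groups in these orders overlapped in their arrays for MPTP and control in Htr1d and Htr2c, for each neighbouring pair of MPTP-treated groups in Htr2a and for acupoint and MPTP in Htr3a. They also overlapped for control and nonacupoint in Htr1b, and in Htr7 for MPTP and nonacupoint and for control and acupoint.

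The serotonin receptors outside the 8 gave no call. Of 6 tested, Htr1f, Htr3b, Htr4, Htr5a, Htr5b and Htr6, limma called 0 in each of the 7 comparisons, and at most 1 had an unadjusted p under 0.05. Htr5a differed by 0.19 with MPTP (95% interval -0.06 to 0.43) and by 0.22 over the 3 MPTP groups (0.03 to 0.42, adjusted p 0.0948). Htr4, a Gs-coupled receptor, differed by -0.15 and -0.14 in the same comparisons. Over the 3 MPTP groups 2 of these 6 were called after a second quantile normalisation and 1 after centring arrays on their medians, settings that called 4293 and 5768 of all 16026 genes.

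Of 15 genes for serotonin synthesis, storage, uptake and breakdown, 13 were on the array and 10 were tested. With MPTP alone 4 of the 10 rose and 0 fell, where 13.7% of all genes rose, and the median difference of the 10 was 0.28. All 4 act on several amines or aldehydes. Maoa and Maob, the oxidases that break down serotonin and dopamine, rose by 0.58 (standard error 0.090, adjusted p 0.00534 with limma) and 0.70 (0.11, adjusted p 0.00561). Aldh2, a mitochondrial aldehyde dehydrogenase, rose by 0.75 (0.13, adjusted p 0.00685), and Ddc, the decarboxylase that completes serotonin and dopamine synthesis, by 0.71 (0.14, adjusted p 0.0106).

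On the arrays Maoa read 8.26 and 8.08 in control and 8.65 to 8.80 in the MPTP-treated mice, and Maob 8.22 and 7.87 against 8.71 to 8.82. Both had the 2 control arrays well below the other 6. Over the 3 MPTP groups the same count of 4 of 10 rose, where 19.9% of all genes rose. That count shifted when single arrays were left out. With MPTP alone all the calls were lost without MPTP 1 or MPTP 2, where calls over all genes fell too. Tph1 and Tph2, the rate-limiting hydroxylases outside and within the nervous system, lay below the filter. The transporter Slc6a4 differed by 0.23 (95% interval -0.10 to 0.56, adjusted p 0.326).

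Of 37 genes for receptor coupling, editing and partners, 35 were tested, and 10 rose and 0 fell with MPTP alone, where 13.7% of all genes rose. The median difference of the 35 was 0.19, beside 0.06 for all genes. The G protein subunits among them were Gnaq (0.45, adjusted p 0.0102), Gna11 (0.44, adjusted p 0.0124), Gnaz (0.47, adjusted p 0.0111) and Gnai1 (0.37, adjusted p 0.0241), the partners of Gq-coupled and Gi-coupled receptors. Kcnj3 and Kcnj9, subunits of the potassium channel that Gi-coupled receptors open, rose by 0.54 (adjusted p 0.00593) and 0.46 (adjusted p 0.0244). Ric3, a chaperone for ligand-gated channels including that of Htr3a, rose by 0.65 (adjusted p 0.00781 with limma). Dlg4, a scaffold that binds Htr2a and Htr2c, rose by 0.28, Adcy5, an adenylate cyclase, by 0.31 and Grk5, a receptor kinase, by 0.57.

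Over the 3 MPTP groups 13 of 35 rose, adding Gnai3 (0.44), Plcb1 (0.22) and Rgs4 (0.22), where 19.9% of all genes rose. Without control 2, 5 of the 35 were called higher, and calls over all genes went from 4041 to 1404. Acupoint needling against control gave 8 called higher, where 9.55% of all genes were. Nonacupoint needling against control gave 11 higher and 1 lower, Arrb2 at -0.35, where 15.4% of all genes were higher and 3.87% lower. With MPTP alone most calls were lost without control 2 and all without MPTP 1 or MPTP 2, where calls over all genes fell too. All 10 called with MPTP alone kept their sign under each scaling, while 6 to 10 of them kept their call. The editing enzyme Adar, which acts on Htr2c RNA, differed by 0.11 over the 3 MPTP groups (adjusted p 0.240). Beside them, 5 of 7 neuron markers rose with MPTP alone, and the mean of the 7 differed by 0.30.

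**Figure D5:**
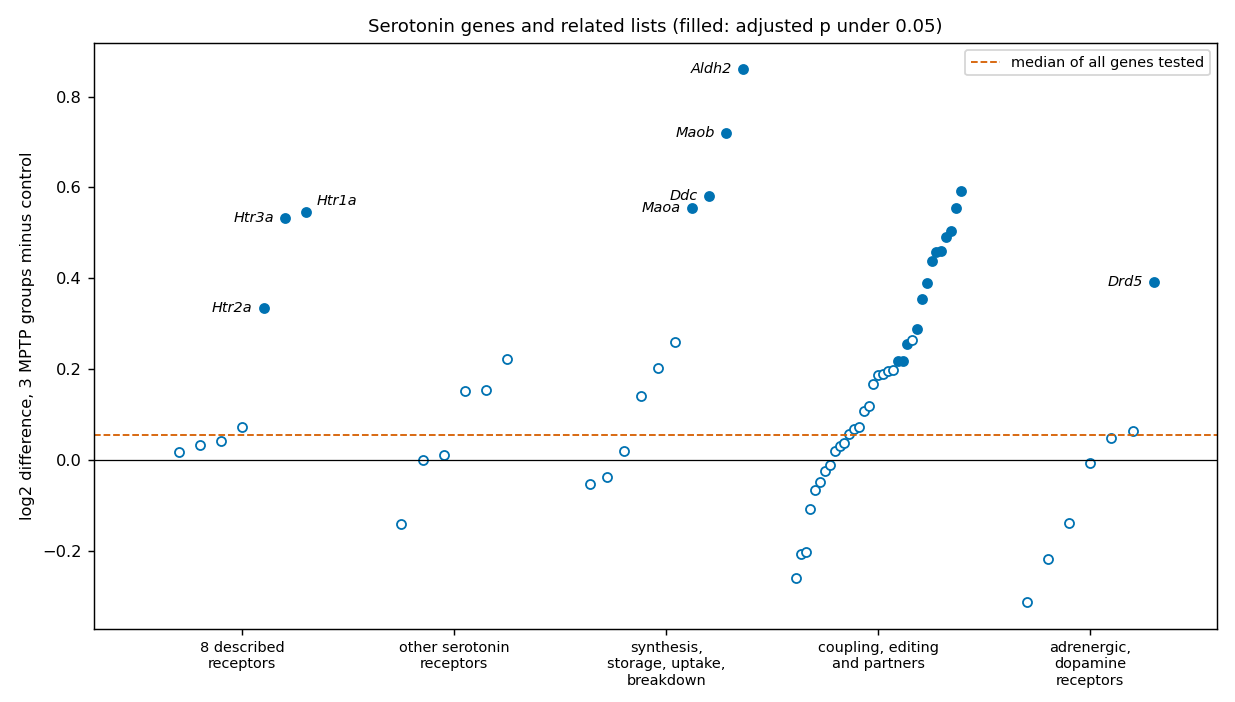
Log2 difference between the mean of the 3 MPTP groups and control for each gene tested of 5 lists, ordered within a list, filled where the adjusted p was under 0.05, with a dashed line at the median of all genes (0.06). Filled points number 3 among the 7 receptors described, 0 among the 6 other serotonin receptors, 4 of 10 for synthesis and breakdown, 13 of 35 for coupling and partners, and 1 of 7 for the adrenergic and dopamine receptors.

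The genes most like each member over the 8 arrays were found by Pearson's r, as a description in which all points share the same arrays and groups. Htr1a was closest to Rdh5 (r = 0.995), a retinol dehydrogenase, Slc39a10 (0.990), a zinc transporter, and Hspa5 (0.989), a chaperone of the endoplasmic reticulum, and 650 genes had an r above 0.9 with it. Htr3a had 1394 such genes, led by Kbtbd4, Cyth3 and Ptprr (0.988, 0.986 and 0.983). Htr2a had 231, led by Zfp597, Txlna and Cdh6 (0.997, 0.993 and 0.986).

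The 4 members not called over the 3 MPTP groups had fewer such genes. These counts largely restate the calls, because a member that sets control apart tracks the many genes that do so. Like the naming, all these counts leave out predicted and olfactory genes. Htr1d had 7, led by Sgsm2, Sidt1 and S1pr1 (0.968, 0.964 and 0.935), Htr1b 11, led by Mier2, Pced1a and N4bp3 (0.964, 0.962 and 0.946), and Htr2c 24, led by Cep152, Lrrc18 and Krtap11-1 (0.972, 0.963 and 0.944). Htr7 had 74, led by Ap3s1, Aimp1 and B9d1 (0.973, 0.972 and 0.972). None of the genes named for these 4 members was called over the 3 MPTP groups. That follows largely from how they were picked, as genes that track members without such a difference. Of the genes named for the called members, Zfp597 and Txlna for Htr2a and Cyth3 for Htr3a were not called either.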

How the data were processed

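Cervical spinal cord RNA (300 ng) was hybridised to 8 arrays, 1 per sample, and samples were grouped by their treatment labels. Per the submitters' processing notes, Affymetrix Expression Console and RMA were used, with no versions stated. RMA subtracts background, equalises the arrays' probe distributions and summarises the probes of a set. The values the authors deposited are on a log scale taken as log2 from their range, for 35557 probe sets. Of these, 21789 had 1 gene symbol in the platform annotation, 1621 several and 12147 none, and those with 1 were used.

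The log2 values were used as deposited. Probe sets had to exceed, in their 8-array mean, the 30th percentile of such means (4.30), and the brightest of each gene was taken, which gave 16026 genes. limma 3.58.1 in R 4.3.3 fitted 1 mean per group over all 8 arrays (eBayes with a trend, 4 residual and 5.34 prior degrees of freedom). Tests were two-sided, with Benjamini-Hochberg adjustment over all genes within each of 7 contrasts and an F-test, called at an adjusted p under 0.05. Intervals cover 95%. The script was tested on simulated data. Each p-value sets a group difference against the spread within groups, pooled over the 4 groups and moderated by a trend across genes. With 2 arrays a group, their precision is limited.

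Named genes were the members, the listed genes with the smallest p or any call, and the 3 genes most correlated with each member, leaving out predicted and olfactory genes. Members, lists and markers were chosen with earlier results of these data known. Promoter windows of 250 bases came from RefSeq (GRCm38.p6), and no protein sequences were used here. Alternatives covered scaling, the level filter, probe set averaging, the eBayes options, the samples fitted, array weights, the replicate block and leaving out each array. A fit without control 2 and acupoint 1 together and fits with marker means as covariates were added after seeing the data. Same-numbered samples of different groups were checked for shared deviations, and the numbers did not pair them.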

Additional observations from a re-analysis of the deposited data

How the results depend on the processing

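The counts of members called were recomputed 174 times over 8 tests, and 127 stayed within 1.5 times the reported count. Those 127 include the 3 contrasts among the MPTP groups, where the reported count of 0 changed in 1 fit only. A move from 2 to 3 members also counted as staying. The 127 therefore overstate how steady the calls against control were. Leaving out single arrays changed the number of members called in each comparison with control and in the F-test. The number of all genes called changed there too. Each such fit left 1 array in a group, so its counts are not given here. The members called were not always the same. Without control 2, acupoint minus control lost the calls of Htr1a and Htr3a and gained that of Htr2a (0.51). No single array left out gave a member called in either needled group minus MPTP. In acupoint minus nonacupoint only Htr2c was called, without acupoint 2. Arrays centred on their medians gave 4 members for MPTP minus control and 4 for acupoint minus control, where calls over all genes went from 2696 to 4246 and from 1878 to 2872. Acupoint minus control fell to 0 with only the groups compared and to 1 with array weights. Nonacupoint minus control fell to 1 with cyclic loess, to 1 with only the groups compared and to 0 with the replicate block. The F-test called 2 members with quantile normalisation again, centring, a filter at the 50th percentile, averaged probe sets, robust eBayes or array weights. With either marker mean as a covariate 0 members were called in each comparison with control and in the F-test. The causes of these changes were not tested.

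The replicate block rests on numbers that do not pair the samples, since deviations of same-numbered arrays correlated at -0.33 to 0.17 between groups. It called 2210 genes for MPTP minus control instead of 2696.

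Among differences called as reported, only those of Htr3a changed sign, with the neuron covariate, and the others given here were not called. In MPTP minus control, Htr2c was 0.14 with arrays centred, Htr2c 0.041 without control 2 and acupoint 1 together, Htr2c 0.29 and Htr7 -0.13 with the muscle covariate and Htr2c 0.55, Htr3a -0.090 and Htr7 -0.34 with the neuron covariate. Single arrays left out gave Htr1d from -0.035 to 0.058 and Htr2c from -0.086 to 0.041. In acupoint minus MPTP, Htr2a was 0.00022 without control 2 and acupoint 1 together. Leaving out single arrays gave Htr2a from -0.053 to 0.00022 and Htr3a from -0.11 to 0.19. In acupoint minus control, Htr1b was -0.017 with cyclic loess, Htr3a -0.023 with the neuron covariate, Htr7 0.059 with arrays centred and Htr7 0.060 without control 2 and acupoint 1 together. Single arrays left out gave Htr7 from -0.21 to 0.063. In acupoint minus nonacupoint, Htr2a was -0.0087 with arrays centred, Htr2a -0.038 with the muscle covariate and Htr7 0.017 without control 2 and acupoint 1 together. Leaving out single arrays gave Htr2a from -0.0049 to 0.048, Htr3a from -0.046 to 0.26 and Htr7 from -0.26 to 0.017. In the 3 MPTP groups minus control, Htr1b was -0.020, Htr2c -0.11 and Htr7 -0.057 with cyclic loess, Htr2c -0.039 and Htr7 -0.038 after a second quantile normalisation, Htr3a -0.070 and Htr7 -0.38 with the neuron covariate and Htr7 -0.18 with the muscle covariate. Single arrays left out gave Htr2c from -0.029 to 0.097 and Htr7 from -0.028 to 0.064. In nonacupoint minus MPTP, Htr7 was 0.000733 with the neuron covariate. Leaving out single arrays gave Htr7 from -0.074 to 0.0019. In nonacupoint minus control, Htr1b was 0.15, Htr1d 0.043 and Htr2c 0.086 with arrays centred, Htr1b 0.022, Htr2c 0.44, Htr3a -0.097 and Htr7 -0.34 with the neuron covariate, Htr1d 0.070 and Htr7 -0.014 after a second quantile normalisation, Htr2c 0.24 and Htr7 -0.18 with the muscle covariate and Htr7 -0.032 with cyclic loess. Single arrays left out gave Htr1b from -0.039 to 0.011.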

Other observations

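The adrenergic and dopamine receptors, which read the other descending monoamines, were examined as a list of 14 genes, of which 7 were tested. Those were Drd1, Drd2, Drd3, Drd4, Drd5, Adra1b and Adra2c. The other adrenergic receptors listed had no probe set of their own, so most of that family was not read. With MPTP alone limma called 0 of the 7, beside 16.8% of all genes. An unadjusted p under 0.05 was seen for 1 of the 7 and for 31.6% of all genes. Drd5, a Gs-coupled dopamine receptor, read 5.61 and 5.88 in control, 6.09 and 6.03 in MPTP, 6.23 and 6.26 in acupoint and 6.17 and 6.05 in nonacupoint mice. Both control arrays were the lowest. It rose by 0.39 over the 3 MPTP groups (95% interval 0.15 to 0.63, adjusted p 0.0244) and by 0.50 with acupoint needling against control (adjusted p 0.0390). Drd2, the Gi-coupled dopamine receptor, read 7.67 and 7.64 in control, 7.51 and 7.44 in MPTP, 7.53 and 7.54 in acupoint and 7.26 and 7.34 in nonacupoint mice. It fell by 0.35 with nonacupoint needling against control (adjusted p 0.0258), and its difference over the 3 MPTP groups was -0.22 (adjusted p 0.0579). The Drd5 call with acupoint needling was lost without any single array other than acupoint 1, and the Drd2 call without any other than either acupoint array.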
